A study of Mus musculus with 19 samples.

Results

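The L1 family and the contactins are 2 groups of cell adhesion molecules of the immunoglobulin superfamily that sit on the surface of growing axons. They comprise 10 mouse genes, namely the 4 genes of the L1 family (L1cam, Nrcam, Chl1 and Nfasc) and the 6 contactin genes (Cntn1 to Cntn6), chosen by symbol among the 47069 genes of the deposited count tables. Transcript levels of L1cam, Chl1, Nfasc, Cntn2 and Cntn5 in ipsilaterally projecting retinal ganglion cells (iRGCs) were between 0.194 and 0.257 of those in contralaterally projecting ones (cRGCs). Nrcam fell far less, Cntn1 did not pass the test, and Cntn3 was the only member called higher in iRGCs, at low counts and with a call that was lost in 4 of the 6 fits that left out 1 library. Other genes moved with these: 14 neuronal reference genes, 2 of them RGC markers, were all lower in iRGCs (median log2 fold change -1.70), and 10 of 10 markers of retinal progenitors were higher (median 2.56). Relative to the reference genes of the same library, Nfasc and Cntn2 overlapped between the populations. On this scale L1cam, Chl1 and, narrowly, Cntn5 were lower in every iRGC library, and the other 5 genes were higher. Since the reference genes fell, a gene of unchanged level also stands higher relative to them. The reference list was chosen with results of these data known.

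RGCs are the neurons that send the axons of the optic nerve, and at the optic chiasm an axon either crosses the midline or turns back to its own side. RNA-seq libraries were made from GFP-positive cells sorted by flow cytometry from retinas at embryonic stage E16.5, with the strain labelled C57/DBA F1, pooled from male and female embryos, with 3 libraries per population. All embryos carried a reporter for Sun1-GFP, a nuclear envelope protein fused to GFP that is made once Cre has removed a stop cassette, and it stays on in the descendants of such cells. In iRGCs Cre was driven from Slc6a4 (Sert), the serotonin transporter gene, and in cRGCs from Pou4f2 (Brn3b), a transcription factor gene used by most RGCs, into whose locus Cre was targeted. Pou4f2-Cre does not separate cRGCs from iRGCs, so the ventrotemporal (VT) region, where iRGCs lie, was cut away from those retinas. The labels give all these embryos as WT and name no further allele or agent. The populations thus differ in driver line, in retinal region and, since iRGCs are born later, in cell age, and these cannot be told apart here. The sources do not say which embryos went into which library, so p-values measure the spread between these samples, which may be partly technical. The number of reads counted on genes ranged from 28193178 in iRGC replicate 1 to 33638083 in cRGC replicate 3.

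L1 family proteins span the membrane and bind ankyrin, which ties them to the spectrin skeleton, whereas contactins are held in the outer leaflet by a lipid (GPI) anchor and act with partners in the same membrane, such as the Caspr proteins. Both bind each other and other adhesion molecules between neighbouring axons, and are known for roles in axon growth, bundling and guidance. L1 family proteins also act with neuropilins in responses to semaphorins, and NrCAM has been studied in the choice of RGC axons at the chiasm.

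The labels were first set beside markers of the populations. Slc6a4 itself did not separate them. It was at 2.06, 33.4 and 116 CPM (counts scaled to a common library size, with TMM factors) in iRGC replicates 1, 2 and 3, and at 48.1, 35.4 and 30.5 CPM in cRGC replicates 1, 2 and 3. iRGC replicate 1 was thus the lowest of all 6 libraries and iRGC replicate 3 the highest, and the log2 fold change of iRGCs over cRGCs was 0.41 (edgeR adjusted p = 0.768). Fold changes and adjusted p-values are from edgeR's quasi-likelihood test over all 15941 tested genes, with Benjamini-Hochberg adjustment. A gene is called higher or lower at an adjusted p-value under 0.1. Zic2, the transcription factor of iRGCs, did separate the populations, with 133, 173 and 157 CPM in iRGCs and 57.0, 60.2 and 65.7 CPM in cRGCs (log2 fold change 1.34, edgeR adjusted p = 2.09e-04). Ephb1, the receptor tyrosine kinase of iRGC axons, did not pass the test (log2 fold change -0.26, edgeR adjusted p = 0.499). Isl2, a transcription factor of cRGCs, was lower in iRGCs, at 19.1, 21.6 and 23.9 CPM against 130.4, 111 and 45.7 CPM (log2 fold change -2.15, edgeR adjusted p = 0.00117).

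Markers of other retinal cells also differed between the populations. Of 10 markers of RGCs in general, 8 were lower in iRGCs and 1 was higher, which was Atoh7, named after its values were seen. Their summed level was 1488, 2108 and 3043 CPM in iRGC replicates 1, 2 and 3 and 7661, 6952 and 8657 CPM in cRGCs. Nefm, a neurofilament gene, was the most abundant on average over the libraries, though Nefl was higher in iRGC replicate 2 and cRGC replicate 2. All 10 markers of retinal progenitors were higher in iRGCs, with summed levels of 8692, 7593 and 6445 CPM against 712, 1953 and 1217 CPM, and Ccnd1, a cell cycle gene, led them. In iRGCs the RGC sum was highest and the progenitor sum lowest in replicate 3. The 14 neuronal reference genes were 12 genes that neurons in general express and Isl1 and Rbpms, which are also on the RGC list. All 14 were lower in iRGCs, with a median log2 fold change of -1.70, while the median over all tested genes was -0.003. In bulk samples such as these, fewer cells of a type and less RNA per cell cannot be told apart.

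Other lists had lower sums. The gene that led a list is the one with the highest mean level over the 6 libraries, not necessarily in each one. The 5 tested of 7 endothelial markers were all higher in iRGCs, with sums of 443, 559 and 433 CPM against 87.2, 108 and 70.3 CPM, led by Kdr, while DESeq2 called 7 of the list and limma voom 2. Kdr made up most of these sums, and the genes next given were named after their values were seen. Cldn5 was at 26.0, 25.2 and 11.8 CPM in iRGC replicates 1, 2 and 3, while others were highest in iRGC replicate 2. Pecam1 was at 9.65, 53.0 and 0.284 CPM in iRGC replicates 1, 2 and 3, and at 0, 0.725 and 0 CPM in cRGC replicates 1, 2 and 3. Cdh5 was at 15.2, 81.3 and 0.158 CPM in iRGCs and at 0 in every cRGC library. Rgs5, a mural gene, was at 3.76, 93.8 and 2.24 CPM in iRGCs and at most 0.323 CPM in cRGCs, while Pdgfrb, also a mural gene, was at 14.2, 25.9 and 18.0 CPM in iRGCs and 3.65, 3.04 and 3.29 CPM in cRGCs. Of the mural markers 3 of 4 tested were higher (107 to 248 CPM in iRGCs and 20.8 to 30.9 CPM in cRGCs, led by Notch3, with 4 called by DESeq2 and 2 by limma voom). All 4 tested markers of photoreceptor precursors were higher (576 to 777 CPM against 97.0 to 190.4 CPM, led by Otx2). So were 4 of 5 amacrine markers (163 to 270.1 CPM against 42.3 to 102 CPM, led by Tfap2b). Of 4 horizontal cell markers 1 was higher (123 to 140.3 CPM against 88.0 to 93.0 CPM, led by Prox1). DESeq2 called 3 of the horizontal cell markers and limma voom 2. Microglial markers summed to 11.5 to 17.8 CPM in iRGCs and 0.654 to 3.59 CPM in cRGCs (2 of 4 tested higher, led by Csf1r). DESeq2 called 3 of the microglial markers and limma voom 3. Erythroid markers summed to 4.25 to 42.7 CPM in iRGCs, highest in iRGC replicate 2, and 0 to 2.69 CPM in cRGCs. Of these, 3 of 3 tested were higher, led by Hbb-bt, with 2 called by DESeq2 and 1 by limma voom. Glial markers summed to 12.1 to 19.9 CPM and 13.2 to 17.8 CPM (1 of 2 tested lower, with Sox10 at 0 in every library). Pigment epithelium markers summed to 2.03 to 6.43 CPM in iRGCs and 1.69 to 4.04 CPM in cRGCs. Mitf led them, though it was at 0 in iRGC replicate 1 and below Pmel in iRGC replicate 2 (1.64 against 2.41 CPM). Lens markers summed to 0.473 to 6.83 CPM in iRGCs and 0 to 0.355 CPM in cRGCs, with Mip at 0 in every library. Cryaa led them through iRGC replicate 2 alone, at 4.91 CPM, and was at 0 in every other library. Of the 4 pigment epithelium and 1 lens markers tested with edgeR, 0 were called and 0 had an unadjusted p-value under 0.05, while DESeq2 called 1 pigment epithelium marker and limma voom called 1 of each list. The part of these cell types in the results on adhesion genes was not tested.

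All 10 adhesion genes passed the filter on low counts. With edgeR 6 were called lower in iRGCs and 1 higher, where 23.1% of all tested genes were called lower and 23.3% higher. At the stricter rule for differentially expressed genes (DEGs), which asks in addition for a log2 fold change over 1 in size, 5 were lower and 1 higher, against 11.0% and 12.1% of all tested genes. Every iRGC library was below every cRGC library for 6 genes and above for 1, which held for 28.2% and 27.1% of the tested genes. The 4 genes of the L1 family were all called lower, with a median log2 fold change of -2.03. Of the 6 contactins, 2 were lower, 1 was higher and 3 were not called, with a median of 0.12. The 10 genes together had a median of -1.24.

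**Figure D1:**
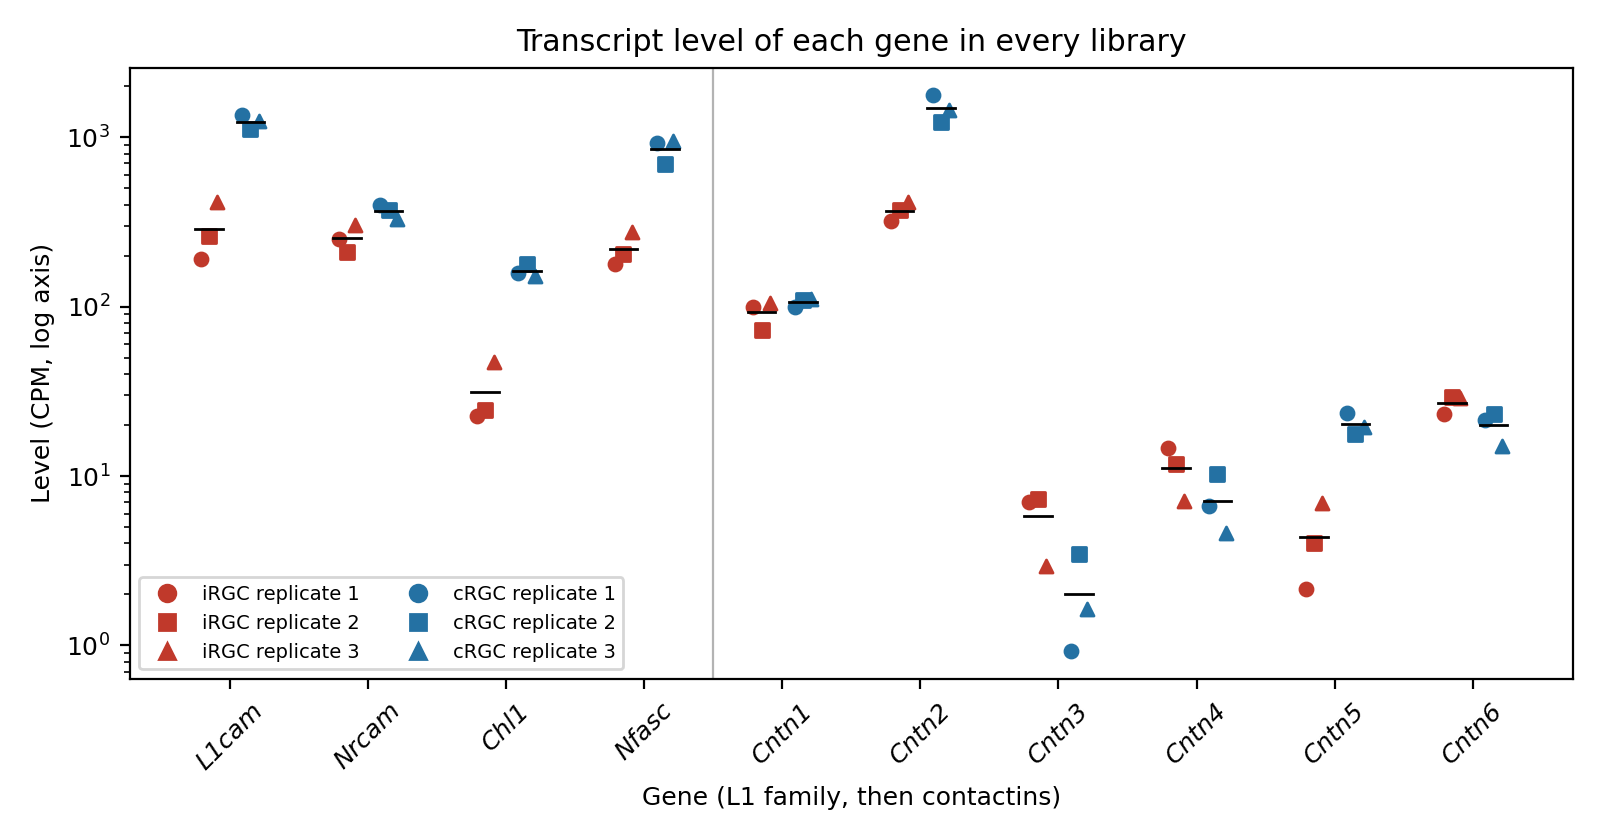
Transcript level in CPM on a log axis (vertical) of each of the 10 genes (horizontal) in the 6 libraries, with iRGCs in red, cRGCs in blue, a marker shape per replicate number and a black line at each population mean. The 3 iRGC points lie below the 3 cRGC points for L1cam, Nrcam, Chl1, Nfasc, Cntn2 and Cntn5, and the populations overlap for Cntn1, Cntn3 and Cntn4.

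L1cam encodes the founding member of the L1 family, an axonal protein that binds itself on neighbouring axons. The gene lies on GRCm38 chrX:73853778-73896105, minus strand, and 1.36% of its exonic bases overlap Arhgap4. Its level was 192, 263 and 412 CPM in iRGC replicates 1, 2 and 3 and 1343, 1120.5 and 1244 CPM in cRGC replicates 1, 2 and 3. The populations did not overlap, and iRGC replicate 3 was 2.15 times as high as iRGC replicate 1. The log2 fold change was -2.10 (SE 0.249, edgeR adjusted p = 3.54e-04).

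Chl1, which encodes the close homologue of L1, had the lowest log2 fold change of the 10 genes, though Cntn5 was slightly lower without cRGC replicate 2 (-2.30 against -2.29) and their 95% intervals overlap. Chl1 lies on chr6:103510586-103750211, plus strand, and reached 22.6, 24.6 and 46.9 CPM in iRGCs and 158, 178 and 151 CPM in cRGCs. The highest iRGC library, again replicate 3, stayed far below the lowest cRGC library, and the log2 fold change was -2.37 (SE 0.264, edgeR adjusted p = 2.84e-04). Per kilobase (kb) of exon, the Chl1 level was above that of 35.0% of tested genes in iRGCs and of 73.5% in cRGCs.

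Nfasc encodes neurofascin, which anchors adhesion and channel complexes at the axon initial segment and the node of Ranvier. The gene lies on chr1:132564690-132741797, minus strand. Its level was 179, 205 and 274 CPM in iRGCs and 920.2, 694 and 944 CPM in cRGCs, without overlap (log2 fold change -1.96, SE 0.185, edgeR adjusted p = 2.07e-04). The counts are per gene, so the neuronal and glial forms of neurofascin were not told apart.

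Nrcam encodes a broadly used neuronal member of the family. Its gene lies on chr12:44328885-44601964, plus strand, and its level was 251, 212 and 302 CPM in iRGCs and 401, 372 and 331 CPM in cRGCs. The highest iRGC library and the lowest cRGC library were close, and the log2 fold change was -0.53 (SE 0.144, edgeR adjusted p = 0.0173). The 95% interval of -0.86 to -0.20 lay apart from those of L1cam (-2.66 to -1.53), Chl1 (-2.97 to -1.77) and Nfasc (-2.38 to -1.54).

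Among the contactins, Cntn2 encodes TAG-1 (axonin-1), a protein of growing projection axons that pairs with L1 and NrCAM. It lies on chr1:132509427-132543256, minus strand. It reached 319, 374 and 412 CPM in iRGCs and 1764, 1226 and 1455 CPM in cRGCs. All 3 iRGC libraries were well below the cRGC libraries (log2 fold change -2.01, SE 0.159, edgeR adjusted p = 2.05e-04), and iRGCs spread less on this gene (coefficient of variation 12.8%) than on L1cam (39.0%) or Chl1 (43.0%).

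Cntn5, which encodes NB-2, an adhesion molecule studied in sensory and visual circuits, was far less abundant. It lies on chr9:9660891-10904775, minus strand, and had 67, 130 and 219 counts in iRGCs and 616, 516 and 603 counts in cRGCs, or 2.15, 4.02 and 6.91 CPM against 23.7, 17.8 and 19.5 CPM. The populations did not overlap although iRGCs varied 3.20-fold (log2 fold change -2.22, SE 0.395, edgeR adjusted p = 0.00217). An RNA on the opposite strand, Gm32710, covers 6.40% of its exonic bases.

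Cntn3, which encodes BIG-1, was the member called higher in iRGCs. It lies on chr6:102162655-102573101, minus strand. It had 220, 237 and 94 counts in iRGCs and 24, 100 and 51 counts in cRGCs, which are 7.08, 7.33 and 2.96 CPM and 0.923, 3.45 and 1.65 CPM. iRGC replicate 3 was below cRGC replicate 2, so the populations overlapped, and the log2 fold change was 1.53 (SE 0.602, edgeR adjusted p = 0.0752). The call was lost without iRGC replicate 1 (log2 fold change 1.35, edgeR adjusted p = 0.149), iRGC replicate 2 (1.32, adjusted p = 0.203), cRGC replicate 1 (1.18, adjusted p = 0.192) or cRGC replicate 3 (1.40, adjusted p = 0.199). It held without iRGC replicate 3 (log2 fold change 1.83, edgeR adjusted p = 0.0439) and without cRGC replicate 2 (2.19, adjusted p = 0.0369).

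The 3 remaining contactins did not pass the test. Cntn1, which encodes contactin (F3), a partner of Caspr and of sodium channels, lies on chr15:92051165-92341967, plus strand, and reached 99.6, 72.7 and 105 CPM in iRGCs and 99.5, 109.6 and 110.5 CPM in cRGCs. iRGC replicate 2 was low, and the other libraries were close to each other. The log2 fold change of Cntn1 was -0.20 with a 95% interval from -0.54 to 0.13 (edgeR adjusted p = 0.317).

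Cntn6, which encodes NB-3, lies on chr6:104492790-104863406, plus strand, and was at 23.2, 29.5 and 28.9 CPM in iRGCs and 21.5, 23.1 and 15.1 CPM in cRGCs. The populations just failed to overlap, with a log2 fold change of 0.45 and a 95% interval from -0.02 to 0.92 (edgeR adjusted p = 0.120). Cntn4, which encodes BIG-2, known from the wiring of olfactory and visual axons, lies on chr6:105677660-106699310, plus strand. Its level was 14.6, 11.8 and 7.16 CPM in iRGCs and 6.65, 10.3 and 4.58 CPM in cRGCs. Cntn4 overlapped between the populations, and its interval ran from -0.21 to 1.49 around a log2 fold change of 0.64 (edgeR adjusted p = 0.217).

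**Figure D2:**
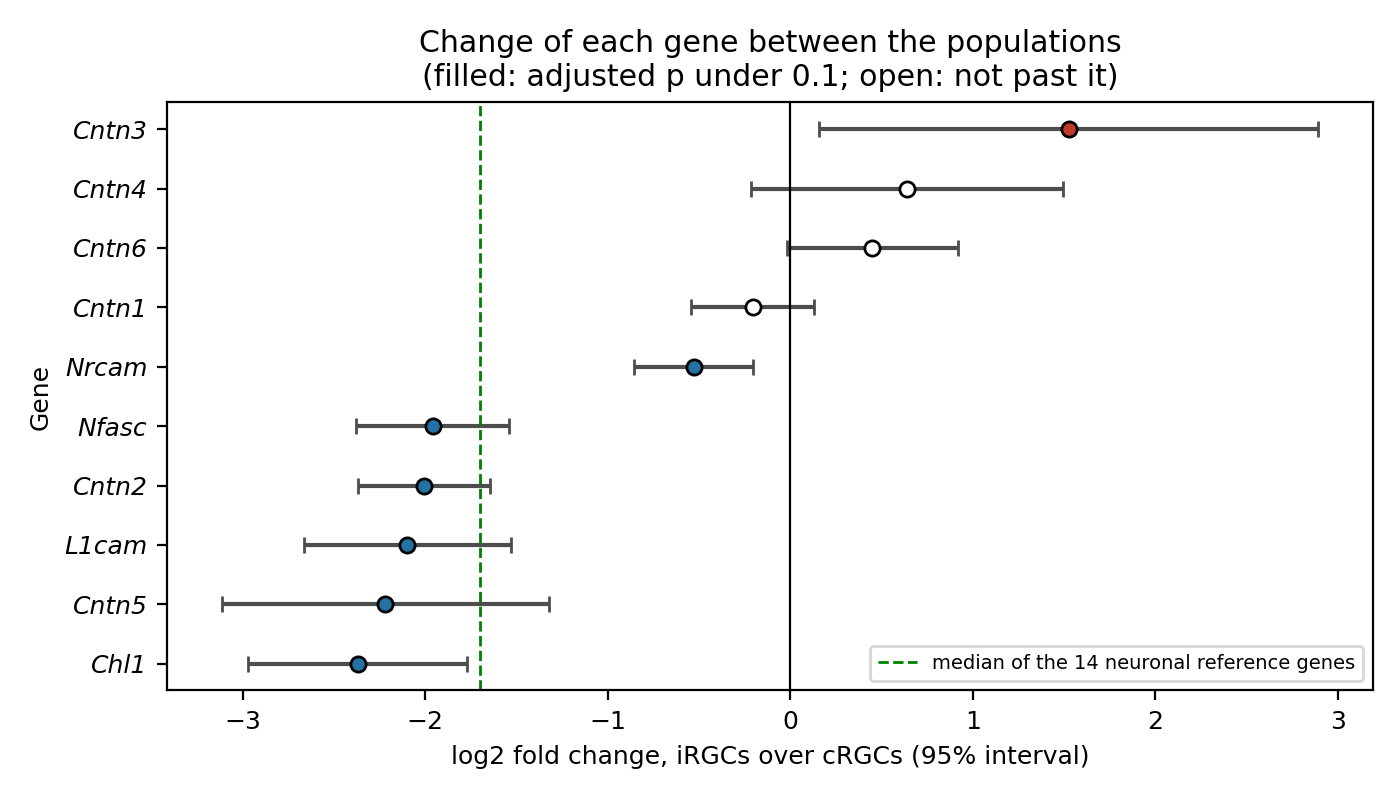
log2 fold change of iRGCs over cRGCs (horizontal) with its 95% interval for each gene (vertical), filled where the adjusted p-value was under 0.1 and open otherwise, with the median of the neuronal reference genes as a dashed line at -1.70. Chl1, Cntn5, L1cam, Cntn2 and Nfasc lie between -2.37 and -1.96, apart from Nrcam at -0.53 and from the 4 contactins between -0.20 and 1.53.

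iRGC replicate 3 was the highest iRGC library for each of the 6 genes called lower and the lowest one for Cntn3 and Cntn4. Of its uniquely aligned reads 12.3% were assigned to no counted feature, against 21.5% and 20.5% in iRGC replicates 1 and 2. If only exons were counted, reads in introns fall in that tally. iRGC replicate 3 had 20283 genes with a count, against 16564 and 19323. The part of these differences between libraries in the result was not tested. Without iRGC replicate 3, and likewise without iRGC replicate 2, 6 genes were called lower by edgeR. The 6 calls did not rest on iRGC replicate 1 alone, the library with the lowest Slc6a4. Leaving it out does not settle how well the populations were separated. Slc6a4 in iRGC replicate 2, at 33.4 CPM, was also within the cRGC range of 30.5 to 48.1 CPM. Without iRGC replicate 1, 6 genes were still called lower by edgeR, and the log2 fold change was -1.87 for L1cam, -2.18 for Chl1, -1.83 for Nfasc, -1.91 for Cntn2, -1.89 for Cntn5 and -0.52 for Nrcam. Without iRGC replicate 1, Cntn6 was called in place of Cntn3 (log2 fold change 0.55, edgeR adjusted p = 0.0842).

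Levels of different genes were compared per kb of exon. In cRGCs, L1cam (168 ± 15.2 CPM per kb, SD, n = 3) and Cntn2 (159 ± 29.0) led and overlapped each other. They were followed by Nfasc (60.3 ± 9.75), Nrcam (27.5 ± 2.63), Chl1 (13.2 ± 1.14), Cntn1 (11.3 ± 0.651), Cntn5 (4.48 ± 0.668), Cntn6 (3.06 ± 0.652), Cntn4 (0.845 ± 0.340) and Cntn3 (0.298 ± 0.194), with no overlap between neighbours in this order. L1cam was above 99.3% of the tested genes in cRGCs and above 94.0% in iRGCs.

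In iRGCs the same genes, Cntn2 (39.6 ± 5.05 CPM per kb) and L1cam (39.3 ± 15.3), led and overlapped. Next came Nrcam (19.1 ± 3.38) and Nfasc (15.5 ± 3.47), which overlapped in iRGCs, then Cntn1 (9.80 ± 1.84), Cntn6 (4.18 ± 0.532) and Chl1 (2.55 ± 1.10), of which the last 2 overlapped. Cntn4 (1.32 ± 0.443), Cntn5 (0.962 ± 0.528) and Cntn3 (0.860 ± 0.364) ended the order, each overlapping its neighbour. Chl1 stood above Cntn1 in cRGCs and below Cntn1 and Cntn6 in iRGCs.

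The make-up of each subfamily therefore differed. Summed over the 4 genes, the L1 family reached 76.4 ± 22.4 CPM per kb in iRGCs and 269 ± 23.6 in cRGCs (SD, n = 3), and the contactins reached 56.7 ± 5.58 and 179 ± 28.7. Within the L1 family, Nrcam made up 31.6%, 23.3% and 22.2% of the sum in iRGC replicates 1, 2 and 3 and 10.3%, 11.4% and 9.07% in the cRGC libraries. The Nrcam share was higher in every iRGC library. The L1cam share was lower in every iRGC library, at 50.5% ± 5.85 against 62.5% ± 0.451, as was the Chl1 share, at 3.26% ± 0.426 against 4.95% ± 0.854. The Nfasc share of 20.5% ± 1.32 in iRGCs overlapped the 22.3% ± 2.16 in cRGCs (two-sided exact permutation p = 0.4). The difference in the Nfasc share, -1.77 percentage points, was -1.01 without iRGC replicate 3, -2.87 without cRGC replicate 2 and -0.70 without cRGC replicate 3. Without division by exon length it was -4.64 and the populations did not overlap (two-sided exact permutation p = 0.1).

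Within the contactins, Cntn2 took 66.4%, 72.1% and 70.7% of the sum in iRGCs and 90.5%, 86.3% and 89.1% in cRGCs, without overlap. The shares of Cntn1 (17.3% ± 3.34 against 6.44% ± 1.31), Cntn6 (7.37% ± 0.653 against 1.74% ± 0.524), Cntn4 (2.39% ± 0.997 against 0.492% ± 0.264) and Cntn3 (1.56% ± 0.746 against 0.180% ± 0.140) were higher in every iRGC library. Shares within a subfamily are tied to each other, so where Cntn2 falls, the shares of genes with unchanged levels rise. In level, Cntn1, Cntn6 and Cntn4 were not called. The Cntn5 share was 1.65% ± 0.757 against 2.51% ± 0.0648, and its highest iRGC value of 2.43% was next to the lowest cRGC value of 2.45%. The difference in the Cntn5 share, -0.86 percentage points, was -0.50 without iRGC replicate 1, and -0.41 without division by exon length, where the populations overlapped (two-sided exact permutation p = 0.2). For these 9 shares without overlap, the two-sided exact permutation test gave p = 0.1, the smallest that 3 libraries against 3 allow, so none of the 10 shares compared could pass a threshold of 0.05.

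**Figure D3:**
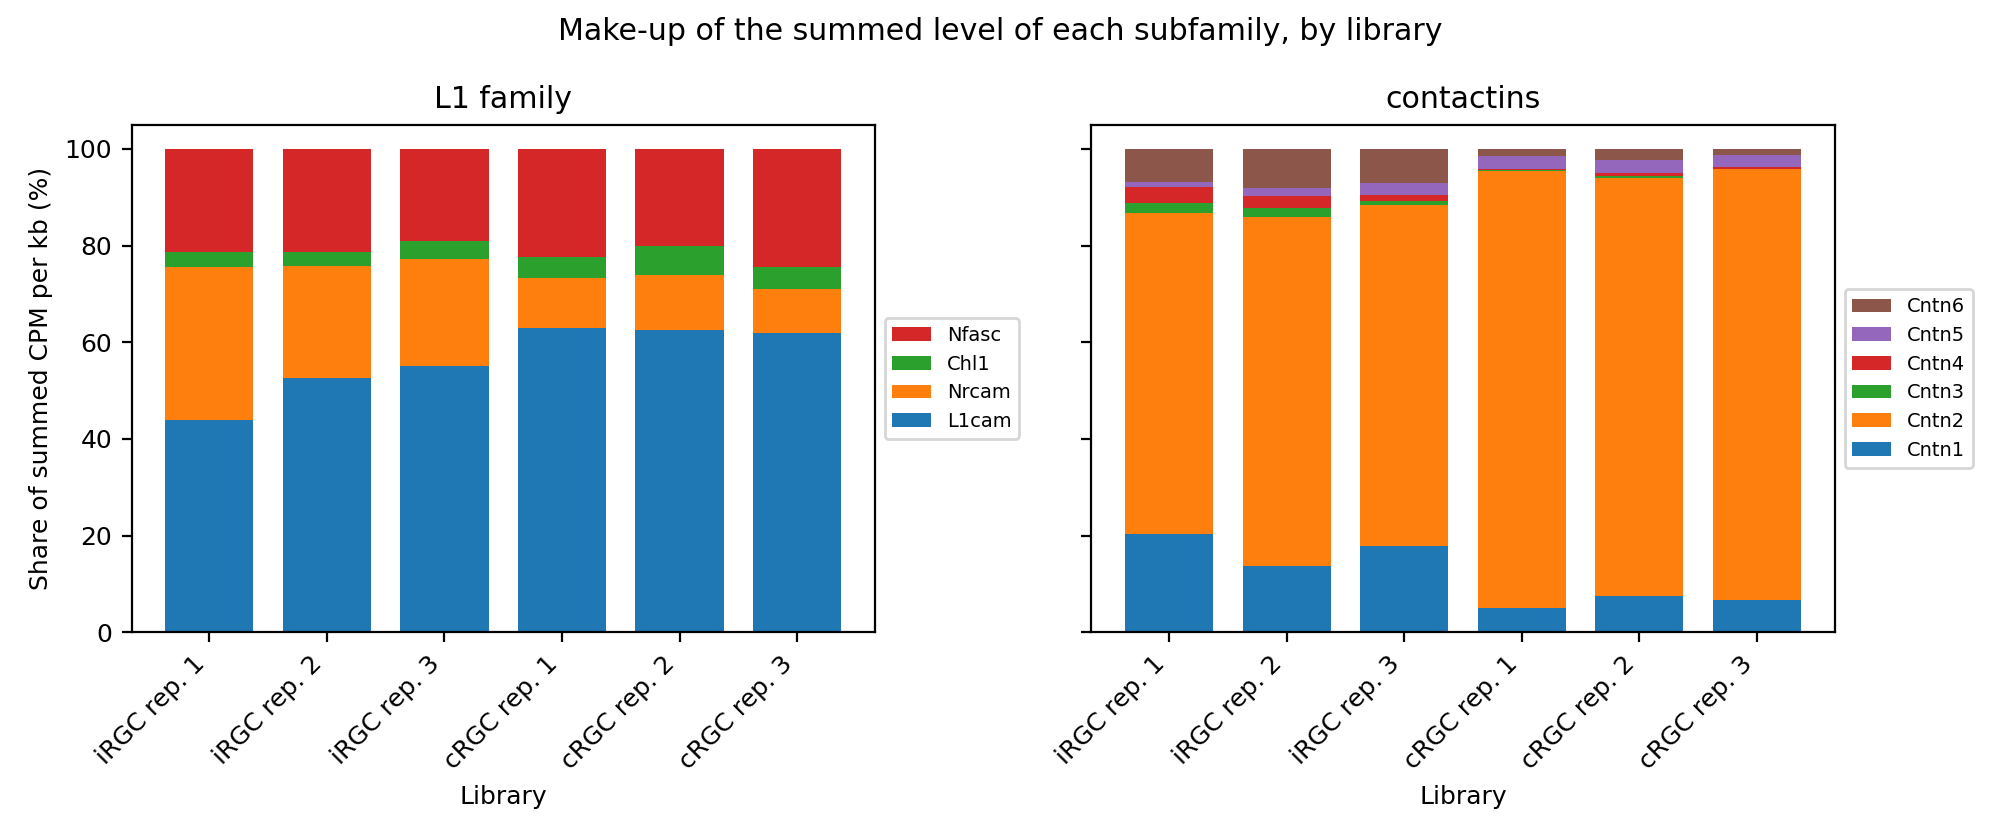
Share in percent (vertical) of each gene in the summed CPM per kb of exon of its subfamily, as stacked bars for each of the 6 libraries (horizontal), with the L1 family on the left and the contactins on the right. Nrcam takes 22.2% to 31.6% of the L1 family in iRGCs and 9.07% to 11.4% in cRGCs, and Cntn2 takes 66.4% to 72.1% and 86.3% to 90.5% of the contactins.

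Each gene was also set against the neuronal reference genes of the same library, which include Tubb3, Gap43 and Map1b. The geometric mean of these 14 genes was 284, 348 and 486 CPM in iRGC replicates 1, 2 and 3 and 1268, 1143 and 1266 CPM in cRGC replicates 1, 2 and 3, a mean log2 difference of -1.75. The ratio of Cntn2 to this mean, on the log2 scale, was 0.17, 0.11 and -0.24 in iRGCs and 0.48, 0.10 and 0.20 in cRGCs. The Cntn2 ratios overlapped, with a difference of -0.25 (two-sided exact permutation p = 0.3), as did those of Nfasc, with a difference of -0.22 (two-sided exact permutation p = 0.2). The log2 ratios of L1cam, Chl1 and Cntn5 were lower in every iRGC library, by differences of -0.41, -0.68 and -0.46. For Cntn5 the separation was narrow, with -6.04 in iRGC replicate 3 next to -5.99 in cRGC replicate 3. The difference for Cntn2 was -0.12 without iRGC replicate 3 and -0.14 without cRGC replicate 1, and that for Cntn5 was -0.26 without iRGC replicate 1.

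The other genes stood higher relative to the reference in every iRGC library, as a gene of unchanged level also does where the reference falls. The difference in log2 ratio was 1.21 for Nrcam, 1.53 for Cntn1, 2.20 for Cntn6, 2.37 for Cntn4 and 3.11 for Cntn3. For Nrcam the log2 ratios were -0.18, -0.72 and -0.69 in iRGCs and -1.66, -1.62 and -1.93 in cRGCs. For the 8 of 10 genes whose ratios did not overlap, the two-sided exact permutation test gave its smallest value, p = 0.1. The reference list was chosen with results of these data known and says only how far a gene moved apart from it.

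**Figure D4:**
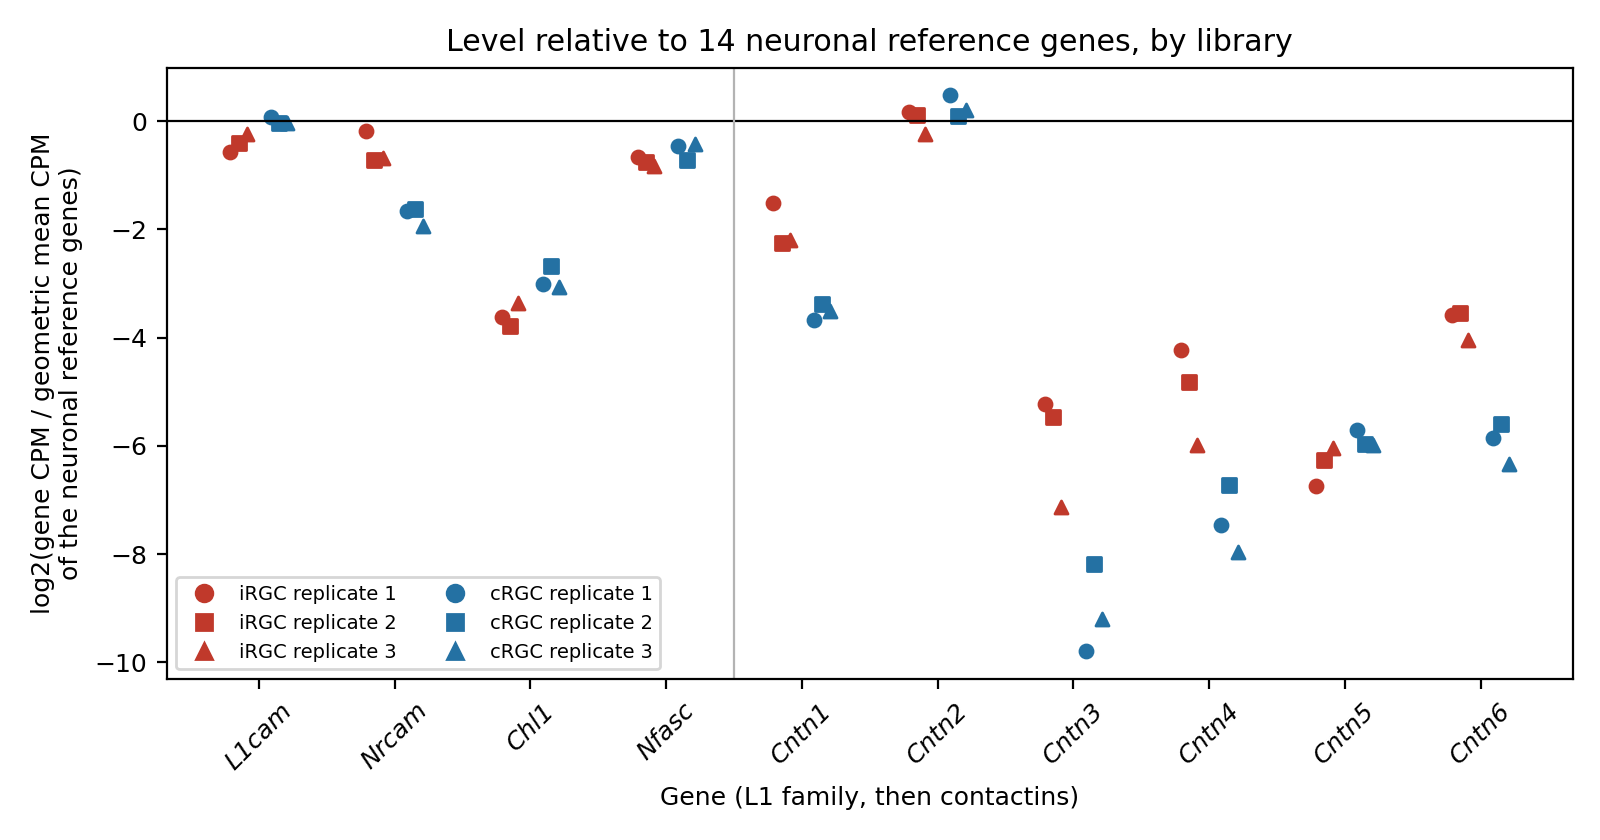
log2 ratio of each gene's CPM to the geometric mean CPM of the 14 neuronal reference genes (vertical) for the 10 genes (horizontal), with a point per library, iRGCs in red, cRGCs in blue and a marker shape per replicate number. iRGC and cRGC points overlap for Nfasc and Cntn2, the iRGC points are lower for L1cam, Chl1 and, narrowly, Cntn5, and they are higher for the other 5 genes.

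The genes whose pattern over the 6 libraries was closest to that of a member were sought for the called genes with the largest change in each direction, among 12110 genes. For Chl1 they were Clvs2, Apba1 and Syt4, of which Syt4 encodes a synaptotagmin and Apba1 an adaptor of neuronal membrane traffic. Their root mean square distances from Chl1 in centred log2 level were 0.0598, 0.0880 and 0.144. For Cntn3 the closest included Loxl1 and Ikzf2, at larger distances of 0.269 and 0.289.

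Several of these genes are neighbours in the genome. Cntn2 and Nfasc are adjacent among the tested protein-coding genes of chromosome 1, 21433 bp apart, and both fell. The tested protein-coding genes that flank this pair did not pass the test, with log2 fold changes of 0.29 for Tmem81 (edgeR adjusted p = 0.716) and -0.15 for Lrrn2 (edgeR adjusted p = 0.713). On chromosome 6, Cntn3, Chl1, Cntn6 and Cntn4 follow each other with no other tested protein-coding gene between them, at gaps of 937484, 742578 and 814253 bp. Of these, Chl1 fell (log2 fold change -2.37), and Cntn3, Cntn6 and Cntn4 had log2 fold changes of 1.53, 0.45 and 0.64. Pdzrn3, on the other side of Cntn3, was higher in iRGCs (log2 fold change 2.60, edgeR adjusted p = 4.98e-04). Trnt1, beyond Cntn4, did not pass the test (log2 fold change 0.28, edgeR adjusted p = 0.196). The nearest tested protein-coding genes not overlapping L1cam were Pdzd4 at 28808 bp and Naa10 at 20767 bp. Pdzd4 was lower (log2 fold change -1.65, edgeR adjusted p = 3.56e-04) and Naa10 higher (0.48, adjusted p = 0.0689). Genes that overlap a member, such as Arhgap4 at L1cam, were passed over. Beside Nrcam, Pnpla8 at 6352 bp was lower (log2 fold change -0.41, edgeR adjusted p = 0.0347) and Stxbp6 at 250519 bp higher (1.48, adjusted p = 0.00272). Beside Cntn5, Arhgap42 was higher (log2 fold change 0.43, edgeR adjusted p = 0.0447) and Jrkl was not called (-0.47, adjusted p = 0.219). Neither Lrrk2 (log2 fold change 0.52, edgeR adjusted p = 0.278) nor Pdzrn4 (0.49, adjusted p = 0.704), beside Cntn1, passed the test. Flanking genes throughout are the nearest tested protein-coding ones outside the member's span, and were named for their position alone.

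Promoters are shown for 4 of the 5 genes with the largest falls, those with the highest levels, among them the neighbours Cntn2 and Nfasc. They are the 250 bases before the first start listed for the gene by RefSeq on GRCm38.p6, where all 10 genes matched, and are written 5′ to 3′ on the strand of the gene. For L1cam and Nfasc, and for Cntn3 and Cntn4 among the genes not shown, this start lies far inside the gene span given above. The bases before the 5′ end of those spans were not searched. Capitals mark a match to 1 of 4 motifs searched on both strands, TAATTA (a core of homeodomain sites), ATGCAAAT (the octamer of POU factors), CAGCAGG (a core of Zic sites) and CCCNNGGG (an EBF site). L1cam lies at chrX:73880791-73881040, Chl1 at chr6:103510626-103510875, Nfasc at chr1:132707327-132707576 and Cntn2 at chr1:132542941-132543190, with Chl1 on the plus strand and the others on the minus strand.
L1cam: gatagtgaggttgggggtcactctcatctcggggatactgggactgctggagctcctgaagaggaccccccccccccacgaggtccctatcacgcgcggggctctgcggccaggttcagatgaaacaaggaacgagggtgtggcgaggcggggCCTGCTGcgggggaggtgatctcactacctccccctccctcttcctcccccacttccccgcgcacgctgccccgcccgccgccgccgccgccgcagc
Chl1: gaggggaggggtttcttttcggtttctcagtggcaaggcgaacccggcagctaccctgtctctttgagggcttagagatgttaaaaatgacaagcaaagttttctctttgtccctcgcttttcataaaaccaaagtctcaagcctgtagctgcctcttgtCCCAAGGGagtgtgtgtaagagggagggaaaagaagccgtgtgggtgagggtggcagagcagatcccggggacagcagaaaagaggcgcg
Nfasc: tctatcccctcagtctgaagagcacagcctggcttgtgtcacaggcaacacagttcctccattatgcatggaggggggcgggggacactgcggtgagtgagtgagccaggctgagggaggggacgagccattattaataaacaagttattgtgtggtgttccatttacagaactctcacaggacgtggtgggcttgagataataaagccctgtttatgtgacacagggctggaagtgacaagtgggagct
Cntn2: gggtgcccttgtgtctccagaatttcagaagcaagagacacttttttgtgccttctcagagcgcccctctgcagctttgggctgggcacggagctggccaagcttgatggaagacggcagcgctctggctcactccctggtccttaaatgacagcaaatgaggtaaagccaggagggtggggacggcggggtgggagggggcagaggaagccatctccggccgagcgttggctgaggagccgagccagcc

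The L1cam promoter held CAGCAGG on the opposite strand, so it reads CCTGCTG above, 97 bases before the start, and the Chl1 promoter held CCCAAGGG 90 bases before the start. No other first-listed promoter of the 10 genes held any of the 4 motifs, those of Nfasc and Cntn2 included. At other listed starts, CAGCAGG was found at -243 bases from the second start of Nfasc, and TAATTA at -110 bases from the second start of Cntn4. The L1cam site given above also lay at -53 bases from the second start of L1cam. Among 32851 mouse promoters of the same length, 8.44% held CAGCAGG, 11.8% CCCNNGGG, 4.84% TAATTA and 1.60% ATGCAAAT. The GC content of the first-listed promoters ran from 26.4% for Cntn3, whose listed start lies inside the gene, to 72.4% for Nrcam. The median over all promoters was 52.4%. RefSeq lists 16 starts for the 10 genes, and counts per gene do not tell which were used.

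Partner genes of the L1 family and the contactins were listed by role. Of 41 listed genes 39 were tested, and 26 of them were lower and 6 higher in iRGCs, with a median log2 fold change of -1.12. Among all tested genes 23.1% were lower and 23.3% higher. At an adjusted p-value under 0.05, 25 partner genes were lower and 6 higher with edgeR. Cntnap5c and Gldn were not tested because of their low counts, at most 24 in a library for Cntnap5c and 22 for Gldn.

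All 12 genes of the membrane skeleton and of cytoplasmic adaptors changed, 9 lower and 3 higher. The 9 lower ones were the ankyrins, the spectrins, Epb41l3 (log2 fold change -1.37, named after its values were seen), which encodes a protein 4.1 with a FERM domain, and Dcx, which encodes the microtubule protein doublecortin that binds neurofascin. Sptbn4, which encodes the spectrin of the axon initial segment, was at 2.03, 10.2 and 18.4 CPM in iRGCs and 65.8, 57.7 and 44.7 CPM in cRGCs (log2 fold change -2.45, SE 0.599, edgeR adjusted p = 0.0107). Ank1, an ankyrin gene, fell by 2.20 on the log2 scale (edgeR adjusted p = 0.00132). The 3 higher ones were the genes of the ERM proteins, which link membrane proteins to actin. Ezr was at 55.2, 42.0 and 43.8 CPM in iRGCs and 4.38, 11.98 and 10.3 CPM in cRGCs, without overlap (log2 fold change 2.40, SE 0.336, edgeR adjusted p = 6.95e-04). Msn followed with a log2 fold change of 1.37 and Rdx, named to complete the trio, with 0.82.

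Of the 11 tested Caspr genes and other partners in the same membrane, 6 were lower and 1 higher. Cntnap4, a Caspr gene, was at 2.70, 6.15 and 7.03 CPM in iRGCs and 24.0, 22.4 and 20.6 CPM in cRGCs (log2 fold change -2.07, edgeR adjusted p = 0.00147). Scn2b, a sodium channel β subunit gene, had a log2 fold change of -1.68. The higher gene was Ptprz1, which encodes a receptor phosphatase that binds contactin 1 and is abundant in progenitors and glia, at 149.9, 143 and 144 CPM in iRGCs and 47.6, 71.8 and 64.4 CPM in cRGCs (log2 fold change 1.25, edgeR adjusted p = 3.95e-04).

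Of the 8 semaphorin ligand and receptor genes 6 were lower and 2 were not called. The 6 include Nrp2, a neuropilin gene named after its values were seen, whose populations overlapped, at 16.2, 24.1 and 33.1 CPM in iRGCs and 46.9, 45.6 and 31.0 CPM in cRGCs (log2 fold change -0.75, edgeR adjusted p = 0.0528), a call that does not hold at 0.05. Sema3a, a secreted repellent of axons, was at 21.2, 31.9 and 40.0 CPM in iRGCs and 97.0, 97.8 and 128 CPM in cRGCs (log2 fold change -1.79, edgeR adjusted p = 4.65e-04). Nrp1, its receptor subunit that binds L1, had 66.1, 88.2 and 61.6 CPM in iRGCs and 234, 181 and 241 CPM in cRGCs (log2 fold change -1.60, edgeR adjusted p = 2.45e-04). Both genes were lower in every iRGC library than in any cRGC library.

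Of the 5 tested genes of extracellular ligands, 3 were lower, among them Tnc (tenascin-C, log2 fold change -2.36, edgeR adjusted p = 0.0361, at 10 to 66 counts in iRGCs) and Ncan (neurocan, log2 fold change -1.88, edgeR adjusted p = 2.36e-04). Tnr, the gene of tenascin-R, a ligand of contactins, was higher, at 27.8, 26.5 and 18.3 CPM in iRGCs and 14.9, 11.8 and 11.7 CPM in cRGCs (log2 fold change 0.92, edgeR adjusted p = 0.00967). The 3 genes of proteases that shed L1 family ectodomains all changed. Adam10 was lower (log2 fold change -1.08, edgeR adjusted p = 0.00287), as was Bace1 (log2 fold change -0.51, edgeR adjusted p = 0.00868), which shares 32.5% of its exonic bases with overlapping genes. Adam17 was higher, at 70.3, 67.4 and 60.0 CPM against 15.5, 30.4 and 25.9 CPM (log2 fold change 1.46, edgeR adjusted p = 0.00117).

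**Figure D5:**
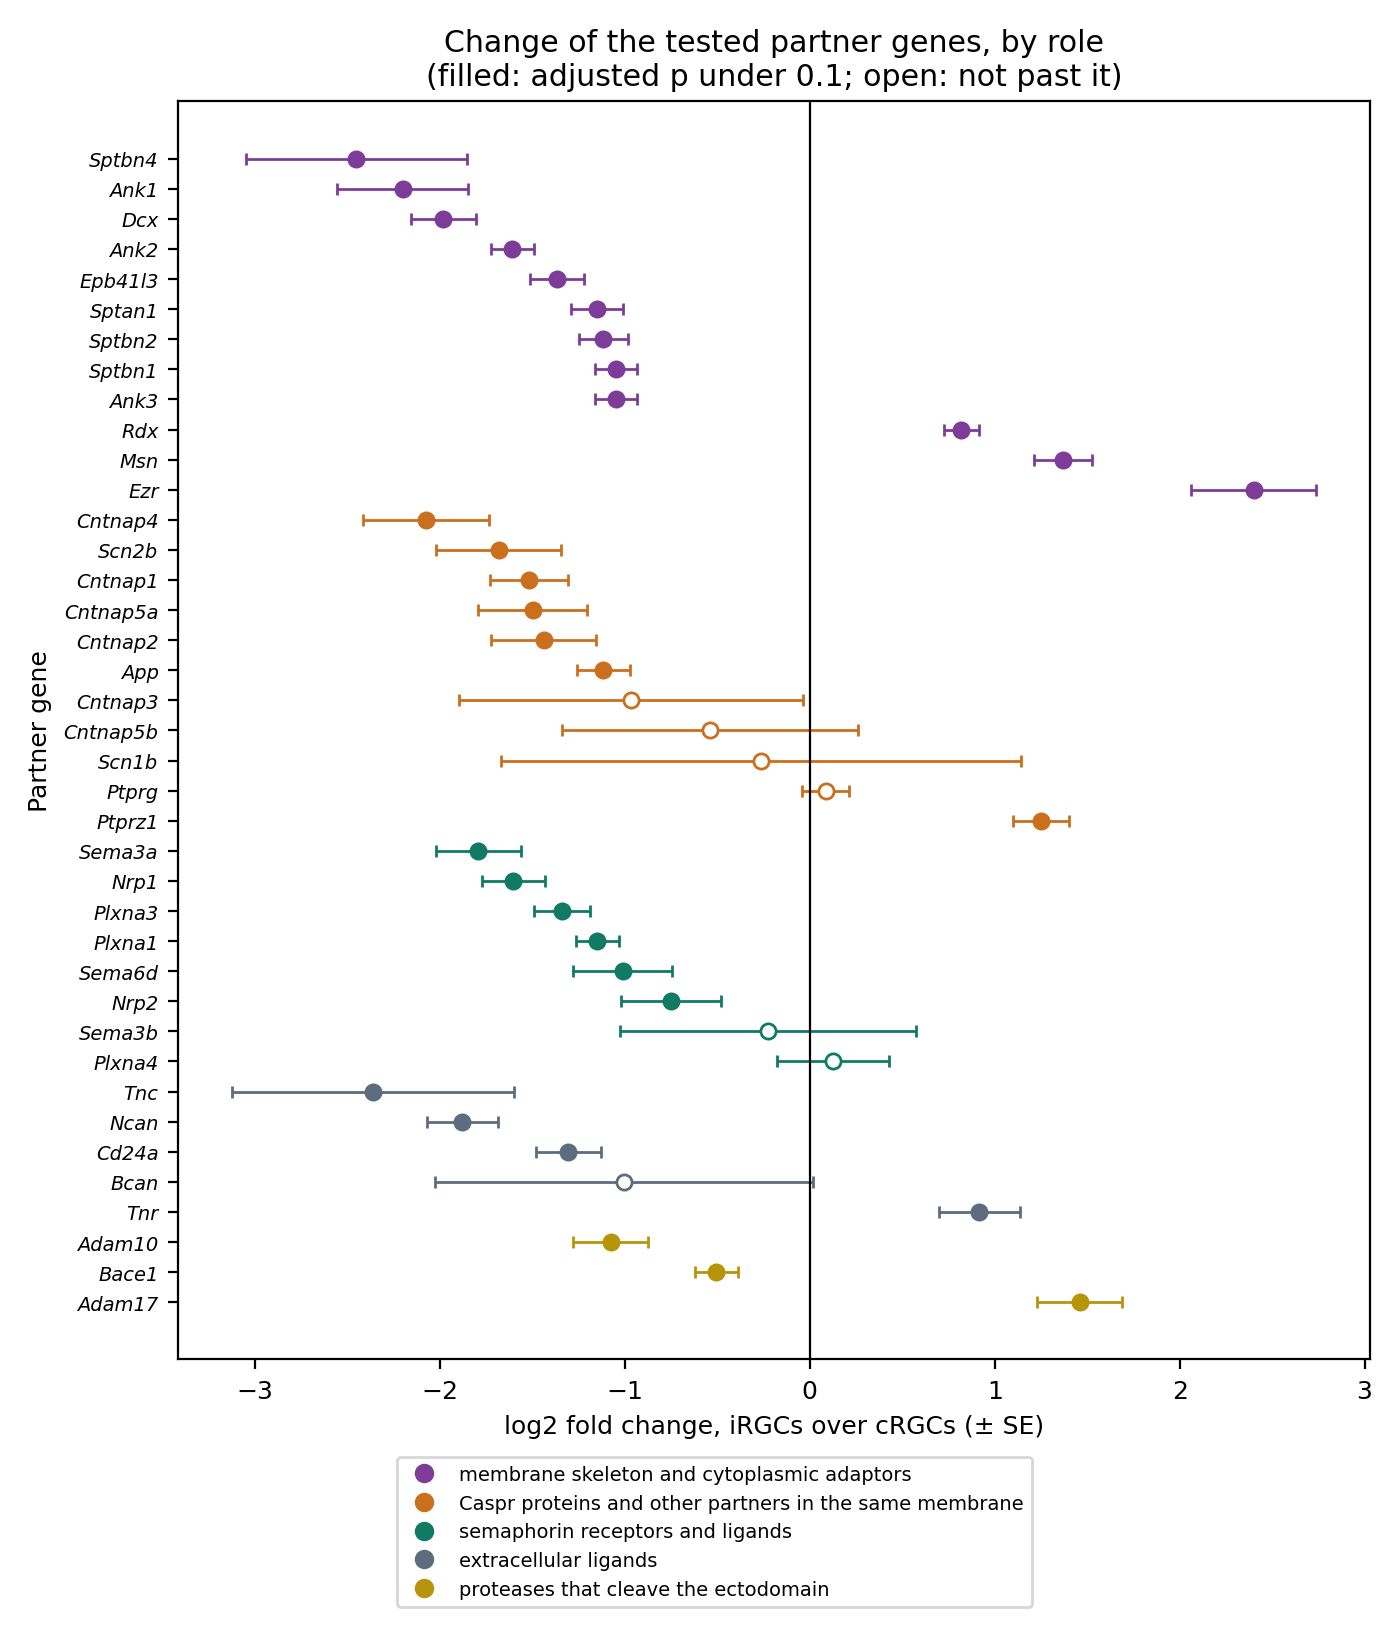
log2 fold change of iRGCs over cRGCs ± SE (horizontal) of the 39 tested partner genes (vertical), coloured by role, filled where the adjusted p-value was under 0.1 and open otherwise. Ezr, Msn, Rdx, Ptprz1, Tnr and Adam17 are the filled points above 0, and 26 filled points lie below 0.

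Other immunoglobulin-domain adhesion genes gave a similar count. Of 9 such genes (the Ncam, Cadm and Sdk genes and Alcam), 7 were lower and 1 higher in iRGCs, with a median log2 fold change of -1.02 beside the -1.24 of the 10 L1 family and contactin genes. Ncam2, a homologue of NCAM known from olfactory axons, fell most, with 1.25, 2.26 and 5.96 CPM in iRGCs and 22.7, 24.3 and 8.10 CPM in cRGCs (log2 fold change -2.54, edgeR adjusted p = 0.00977). The lowest cRGC library, replicate 3, was near the highest iRGC library, replicate 3. Sdk2, a sidekick gene of synaptic layer choice in the retina, was higher (log2 fold change 0.42, edgeR adjusted p = 0.0496), a call lost without iRGC replicate 1, cRGC replicate 1 or cRGC replicate 3. No test compared these lists with each other.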

How the data were processed

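RNA from sorted cells was sequenced in 6 libraries, and the 13 ATAC-seq samples were not analysed here. Per the labels and methods, the authors aligned reads to mm10 with HISAT2 2.1.0, counted uniquely aligned reads per Ensembl gene of GRCm38 with HTSeq 0.11.1, used DESeq2 1.26.0, and deposited raw counts without normalization. The strand setting is not given in the sources used here, so reads from a gene and an overlapping gene on the other strand cannot be told apart. HTSeq's tallies that name no gene were left out of library sizes and tests. Reads assigned to no counted feature were 12.3% to 23.2% of uniquely aligned reads, and 0.857% to 0.989% were ambiguous.

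Symbols, positions and merged exon lengths came from GENCODE M21 of GRCm38 for 46574 of 47069 genes. The test was that of edgeR 4.0.16 under R 4.3.3 (filterByExpr, TMM, quasi-likelihood, two-sided, no block, 3 against 3 libraries), with Benjamini-Hochberg adjustment over 15941 genes, at an adjusted p-value under 0.1. SEs are the absolute log2 fold change over the square root of F. The iRGC libraries had TMM factors of 1.03 to 1.10 and the cRGC libraries of 0.921 to 0.952. The biological coefficient of variation was 36.3%. CPM (counts scaled to a common library size) used these factors. Log2 ratios to the reference used a pseudocount of 0.5.

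The 10 genes and all lists were chosen with earlier results of these data known. Named are all 10 genes, the 2 partner genes with the largest change per role and direction, untested partners, the related adhesion gene with the largest change per direction, the most abundant gene of each marker list, the 3 genes most alike (mean of at least 100 normalized counts) and genomic neighbours. Others were named after their values were seen, and a few genes that this rule names are not reported here. Alternatives were DESeq2's size factors, upper quartile factors, DESeq2 1.42.0, limma 3.58.1 voom, no or a stricter count filter, each library left out, a replicate block, an adjusted p-value under 0.05, shares without length, a smaller pseudocount and a shorter reference list. Exact permutation tests used scipy 1.17.1 and figures matplotlib 3.10.9 in Python 3.11.15. Promoter sequences are from RefSeq.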

Additional observations from a re-analysis of the deposited data

How the results depend on the processing

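Under all 14 alternatives, 6 of the 10 genes were called lower in iRGCs, and no log2 fold change of these 10 genes changed sign. The count called higher, 1 in the fit reported, was 2 with upper quartile factors, limma voom or at least 10 counts in every library, and 0 at an adjusted p-value under 0.05. With each library left out in turn it ranged from 0 to 2, with 0 without iRGC replicate 2, cRGC replicate 1 or cRGC replicate 3 and 2 without cRGC replicate 2. These counts concern Cntn3 and Cntn6. The count of related adhesion genes called higher, 1 in the fit reported, ranged from 0 to 1 with a library left out. Leaving out libraries gave log2 fold changes of -2.45 to -1.87 for L1cam, -2.79 to -2.18 for Chl1, -2.16 to -1.83 for Nfasc, -2.11 to -1.87 for Cntn2, -2.72 to -1.89 for Cntn5 and -0.68 to -0.41 for Nrcam. For the others they were 1.18 to 2.19 for Cntn3, -0.32 to -0.06 for Cntn1 (-0.06 without iRGC replicate 2, -0.32 without iRGC replicate 3), 0.40 to 1.02 for Cntn4 (0.40 without iRGC replicate 1, 0.41 without cRGC replicate 3, 1.02 without cRGC replicate 2) and 0.29 to 0.59 for Cntn6 (0.29 without cRGC replicate 3). Without division by exon length, the share differed by -4.64 percentage points for Nfasc and 4.09 for Cntn6. Same-numbered libraries did not deviate together from their population means (correlations of -0.0121, -0.0237 and -0.0550). These values cannot show whether same-numbered libraries shared a day or a litter. With the replicate block 6 of the 10 genes were lower and 1 was higher, as without it, while over all tested genes 3316 were higher and 3435 lower, against 3707 and 3688. For each iRGC library, the cRGC library of its own number gave the lowest of the 3 correlations. Cntn3 had 24 to 100 counts in cRGCs, with a coefficient of variation of 64.9%.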
